A study of Mus musculus with 2 samples.

Results

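A set of 40 cell cycle genes was followed across the cell types of the mouse aorta: 25 genes whose transcripts accumulate in G2 phase and mitosis (the G2/M genes) and 15 genes of DNA replication (the S phase genes). They were taken by gene symbol from a list of 40 and make up 40 of the 32285 genes counted. All 40 had at least 1 UMI (unique molecular identifier, which marks 1 captured RNA molecule) in both libraries. The cells came from single-cell RNA sequencing of aortas, with 1 library per group. Both groups carried the ApoE-/- mutation on a C57BL/6 background, which raises blood cholesterol, and both were fed a Western diet so that atherosclerosis developed. The WT group carried no further deletion named in the labels. The EC-iCD45KO group also carried a tamoxifen-inducible deletion of CD45, a tyrosine phosphatase normally found on leukocytes, in endothelial cells (EC). The promoter of the Cre line, the ages, the number of animals, any pooling, and whether the WT mice received tamoxifen were not given in the sources used here. Digested cells were enriched on beads that bind CD31, which endothelial cells carry on their surface, and sequenced by the 10x Genomics method. The study asked what endothelial CD45 does in endothelial-to-mesenchymal transition and lesion growth.

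A dividing cell copies its DNA in S phase and then separates the copies in mitosis. The licensing complex of the MCM proteins is loaded onto origins before S phase, and enzymes such as ribonucleotide reductase (Rrm1, Rrm2), thymidylate synthase (Tyms) and thymidine kinase (Tk1) supply the nucleotides. Cyclin A and cyclin B with the kinase Cdk1 then drive entry into mitosis, kinesins and the spindle checkpoint move and watch the chromosomes, and the anaphase-promoting complex with Cdc20 and Ube2c ends mitosis by degrading the cyclins. In the healthy aorta endothelial and smooth muscle cells rarely divide, and local division of macrophages is a known feature of growing plaques.

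Promoters are shown because the G2/M genes and the S phase genes are known to be switched on through different short DNA motifs, the cell cycle homology region (CHR) with CCAAT boxes for the former and E2F sites for the latter. RefSeq promoters of 300 bases (250 before and 50 after the start, GRCm38.p6) matched 35 of the 40 genes by symbol. Mcm4, Gins2, Ccna2, Aurkb and Tpx2 did not match. The CHR was searched as TTTGAA or TTTAAA, the CCAAT box as CCAAT and E2F sites as TTTGGCGC, TTTCGCGC, TTTCCCGC or TTTGCCGC, all on both strands. Printed are bases upstream of the RefSeq start, 5′ to 3′ on the strand of the gene, from at most 120 bases before it, without any base in an exon of the gene in GENCODE. Capitals mark CHR and CCAAT matches in the first 5 sequences and E2F matches in Mcm6.
Cdk1: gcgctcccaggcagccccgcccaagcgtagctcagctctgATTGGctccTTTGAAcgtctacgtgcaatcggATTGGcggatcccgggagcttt
Cdc20: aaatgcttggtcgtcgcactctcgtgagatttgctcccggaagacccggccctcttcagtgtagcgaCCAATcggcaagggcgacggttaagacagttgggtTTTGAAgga
Plk1: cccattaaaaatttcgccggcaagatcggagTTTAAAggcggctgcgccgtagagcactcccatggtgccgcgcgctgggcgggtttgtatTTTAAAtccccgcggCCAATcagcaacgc
Top2a: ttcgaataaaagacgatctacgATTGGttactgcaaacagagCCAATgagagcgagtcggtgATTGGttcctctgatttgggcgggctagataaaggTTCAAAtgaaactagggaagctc
Kif11: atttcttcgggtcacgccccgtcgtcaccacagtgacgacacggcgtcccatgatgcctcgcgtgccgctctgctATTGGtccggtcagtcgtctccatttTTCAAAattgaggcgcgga
Mcm6: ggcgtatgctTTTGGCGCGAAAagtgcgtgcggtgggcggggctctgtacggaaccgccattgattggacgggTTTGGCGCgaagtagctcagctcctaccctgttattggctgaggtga

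These stretches lie at chr10:69352939-69353032 (minus strand, Cdk1), chr4:118437353-118437463 (minus, Cdc20), chr7:122159315-122159434 (plus, Plk1), chr11:99024190-99024309 (minus, Top2a), chr19:37376262-37376381 (plus, Kif11) and chr1:128359706-128359825 (minus, Mcm6). In Top2a the CHR match began 23 bases before the start and 3 CCAAT matches preceded it, at 98, 78 and 58 bases. In Kif11 the CHR match lay at 19 bases and the CCAAT match at 45. In Mcm6, 2 of the 3 E2F matches overlapped, at 110 and 106 bases on opposite strands. A CHR match stood in 20 of the 22 G2/M promoters and in 6 of the 13 S phase promoters, against 27.6% of all 32851 promoters. A CCAAT match, with or without a CHR match, stood in 18 of 22 G2/M and 9 of 13 S phase promoters, against 37.4% of all. A CHR match together with a CCAAT match stood in 17 of 22 G2/M and 4 of 13 S phase promoters, against 10.7% of all. E2F matches stood in 6 of 13 S phase promoters (Mcm3, Mcm5, Mcm6, Mcm7, Uhrf1 and Cdc6) and in 1 of 22 G2/M promoters (Cdk1), against 2.27% of all. A match is a run of letters and no binding was measured here.

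The WT library held 39503 kept cells (92058043 UMIs in all barcodes, median 1552 per kept cell) and the EC-iCD45KO library 28960 (88967918 UMIs, median 1438). The 2 libraries shared 324 cell barcodes among kept cells. With 1 library per group no test between the groups was possible. Intervals are 95% and cover counting error only, not differences between animals or libraries. For levels summed over cells, and for their ratios, counting error treats every UMI as independent, although UMIs come together in a cell. Those intervals do not cover the sampling of cells and are too narrow where few cells hold many of the UMIs. Cells were grouped into classes, called X-like, by marker genes outside the cell cycle list and with all cell cycle genes left out of the clustering. EC-like cells numbered 4192 of 39503 in WT and 4494 of 28960 in EC-iCD45KO, and all 12 EC markers (Cdh5, Pecam1 and others) were detected in them. Ptprc, the gene of CD45, had 2749 UMIs in the EC-like cells of WT, a level of 310 CPM (UMIs per 1000000 UMIs of the class, interval 299 to 322). In EC-iCD45KO the EC-like level was 117 CPM (interval 111 to 124). It was lower in SMC-like cells as well (326 against 116 CPM). Which part of the gene was deleted is not given, so this level does not test the deletion. Over the EC-like class, macrophage markers summed to 3907 CPM in WT and 6330 CPM in EC-iCD45KO, beside 4276 and 4848 CPM for EC markers. The part of other cells or their RNA in this class was not tested.

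A cell was called cycling when, after thinning to 1000 UMIs, it held a UMI of 3 or more of the 40 genes. Thinning left out 9874 WT and 9563 EC-iCD45KO cells with fewer UMIs. By this rule 904 of 29629 WT cells (3.05%, 2.86 to 3.25%) and 498 of 19397 EC-iCD45KO cells (2.57%, 2.35 to 2.80%) were cycling. Without thinning the shares over all kept cells were 8.21% and 8.86%. Most cycling cells held genes of both phases (65.3% in WT, 60.8% in EC-iCD45KO), G2/M genes alone made 25.7% and 30.5% of the calls, and S phase genes alone made 9.07% and 8.63%.

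How far each gene was concentrated in dividing cells was measured by the share of its UMIs that fell in cells with 3 or more of the other 39 genes, a group that held 2.66 to 3.03% of WT cells, depending on the gene left out. The G2/M genes were the more concentrated, with a median share of 37.1% in WT and 39.9% in EC-iCD45KO, against 10.4% and 12.4% for the S phase genes. Because 25 of the 40 genes are G2/M genes, the group leans toward cells that hold those. The measure thus favours G2/M genes, and the gap between the lists cannot be read apart from this rule. Ccna2, cyclin A2, reached 53.8% (92 of 171 UMIs) in WT and 49.3% in EC-iCD45KO. Ube2c, the ubiquitin-conjugating enzyme of the anaphase-promoting complex, reached 52.7% and 51.7%, and Cenpf, a kinetochore protein, 51.8% and 53.3%. Among S phase genes Rrm2 (34.2% and 45.5%) and Tk1 (34.7% and 28.4%) stood closest to the G2/M genes. Pcna, the sliding clamp of DNA polymerase, was at the other end, with 4.81% of 2641 UMIs in WT and 4.60% of 1716 in EC-iCD45KO, although the cells concerned made only 2.66% and 2.25% of all cells. Mcm4, a subunit of the replicative helicase, stood at 5.73% and 6.62%.

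**Figure D1:**
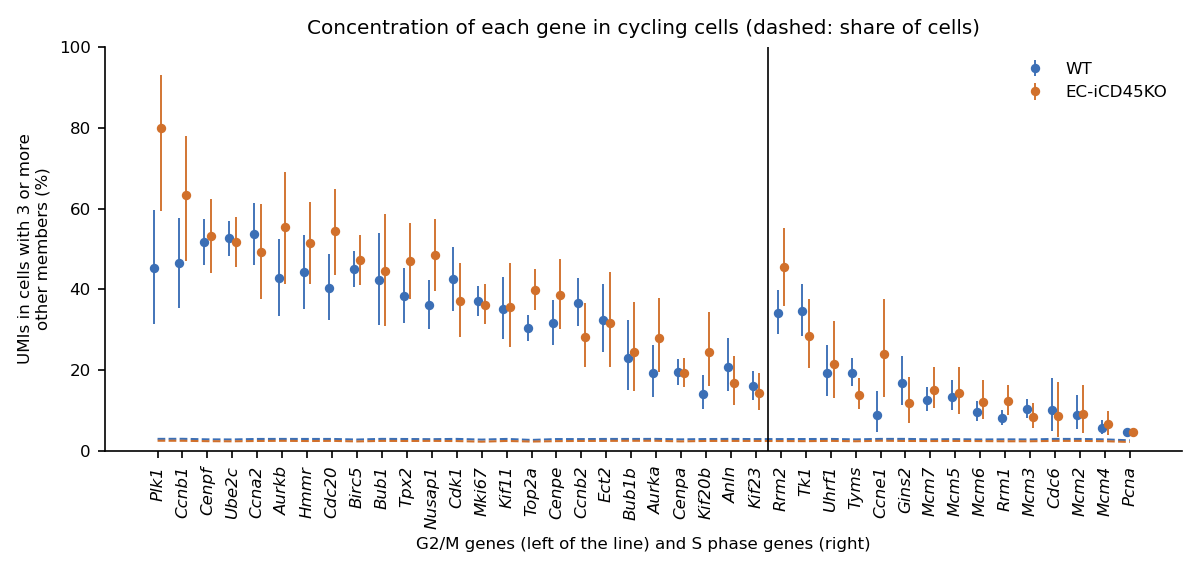
Share of each gene's thinned UMIs (percent) that lay in cells with a UMI in 3 or more of the other members, for WT (blue) and EC-iCD45KO (orange), with exact 95% binomial intervals; dashed lines give the share of cells in that group. G2/M genes run from Plk1 on the left to Kif23, and S phase genes end at Pcna, whose points (4.81% and 4.60%) lie just above the dashed lines.

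Pcna, Kif23, Cenpa and Anln were among the genes spread widely beyond cycling cells. In WT, Kif20b (14.2% of UMIs in cells with 3 other members) and Aurka (19.3%) were as well, at 24.5% and 28.0% in EC-iCD45KO. Pcna was highest in neutrophil-like cells in both libraries, at 146 CPM in WT (121 to 174) and 146 CPM in EC-iCD45KO (131 to 163), and neutrophils are cells that have left the cycle. Kif23, a kinesin of the cytokinetic midbody, stood at 34.0 CPM (22.6 to 49.1) in WT neutrophil-like cells, the highest class there, and at 24.7 CPM (18.8 to 32.0) in EC-iCD45KO, next to 25.5 CPM in T/NK-like cells. Its concentration in cycling cells was 16.0% in WT and 14.3% in EC-iCD45KO, and Cenpa, the histone variant of the centromere, stood at 19.5% and 19.3%. Anln, anillin, the scaffold of the cytokinetic ring, was highest in SMC-like cells in both libraries, with 30.6 CPM (152 UMIs) in WT and 44.5 CPM (465 UMIs) in EC-iCD45KO. Only 20.9% and 16.9% of Anln UMIs lay in cells with 3 other members. On the same strand Anln overlaps Gm48646 in GENCODE, and 7 other members overlap a gene on the opposite strand (Ccna2, Cdc20, Ube2c, Nusap1, Mcm7, Gins2 and Tk1), while 32 of 40 overlap none.

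Clusters left without a name held 228 of the 904 cycling cells of WT (25.2%) and 51 of the 498 of EC-iCD45KO (10.2%). Across the named classes the share of cycling cells ran from 1.11% to 14.3% in WT and from 0% to 5.77% in EC-iCD45KO. The 5.77% was that of chondrocyte-like cells (6 of 104), whose 6 cycling cells had chondrocyte markers at 3806 CPM against 18268 CPM in the others and macrophage markers at 18823 against 3103 CPM, with 33.3% of them among the 10% with the highest doublet scores. The part of these in that share was not tested. EC-like cells had the larger share in EC-iCD45KO, and macrophage-like and SMC-like cells had the larger share in WT, but the EC-like difference was within counting error without the cluster led by Tmem252 and Rbp7 (0.364 points, -0.689 to 1.46), and the SMC-like one without thinning. In EC-like cells 49 of 2866 WT cells (1.71%, 1.27 to 2.25%) and 114 of 2898 EC-iCD45KO cells (3.93%, 3.26 to 4.71%) were cycling, a difference of 2.22 percentage points (1.38 to 3.10). In macrophage-like cells 165 of 3281 (5.03%, 4.31 to 5.83%) and 208 of 7678 (2.71%, 2.36 to 3.10%) were, a difference of -2.32 points (-3.19 to -1.52). In SMC-like cells the counts were 49 of 1642 (2.98%, 2.22 to 3.93%) and 12 of 2420 (0.496%, 0.256 to 0.865%), a difference of -2.49 points (-3.45 to -1.68). T/NK-like cells differed by 1.93 points (0.40 to 4.14), from 2.21% in WT to 4.14% (20 of 483 cells) in EC-iCD45KO, but the difference was 1.34 points (-1.05 to 4.31) at a minimum of 2 members and -0.464 without the Dapl1 cluster described further on. Fibroblast-like cells (2.23% and 2.26%) and B-like cells (1.63% and 2.44%) differed by less than counting error, with intervals of the difference of -0.78 to 0.86 and -0.44 to 3.13 points. The fibroblast-like difference depended on the setting: it was 1.26 points without thinning (0.331 to 2.22), 1.61 without the highest doublet scores and -2.03 at a minimum of 2 members.

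Neutrophil-like cells, which should hold no dividing cells, gave 1.30% in WT (4 of 307, median depth 1154 UMIs over the class) and 1.45% in EC-iCD45KO (13 of 899, median 1319). This level was used as a rough reference and not as a rate of false calls. Cycling neutrophil-like cells had neutrophil markers at 4243 CPM against 18951 CPM in the others in WT, and 1665 against 22842 CPM in EC-iCD45KO. Macrophage markers in the same cells stood at 7395 against 5822 CPM in WT, and 17782 against 10737 CPM in EC-iCD45KO. The EC-like median depths, 1346.5 and 1302 UMIs, were close to those of neutrophil-like cells. The SMC-like, dendritic-like and plasma-like shares in EC-iCD45KO, the lymphatic EC-like share in WT (1.20%) and the Schwann-like shares (1.11% and 0.336%) lay below the neutrophil-like level. The WT neutrophil-like share had an interval of 0.356 to 3.30%, and the EC-iCD45KO one of 0.772 to 2.46%. Among the named classes the macrophage-like, plasma-like and erythroid-like intervals in WT and the EC-like and T/NK-like intervals in EC-iCD45KO lay above that of the same library. The intervals of all other named classes overlapped it, those of EC-like and SMC-like cells in WT and of macrophage-like cells in EC-iCD45KO included. Overlap of intervals does not show that shares are alike. Differences from the neutrophil-like share were not computed, so these shares were not placed above or at that level. With the stricter requirement of 6 members, 3 EC-like cells remained in WT (0.105%) against 16 in EC-iCD45KO (0.552%), and 64 macrophage-like cells (1.95%) against 51 (0.664%). Without thinning the EC-like shares were 6.32% and 8.50%, and the macrophage-like shares 14.9% and 11.2%. The SMC-like shares without thinning were 5.64% and 4.85%, and their difference of -0.789 points (-1.97 to 0.342) was within counting error.

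**Figure D2:**
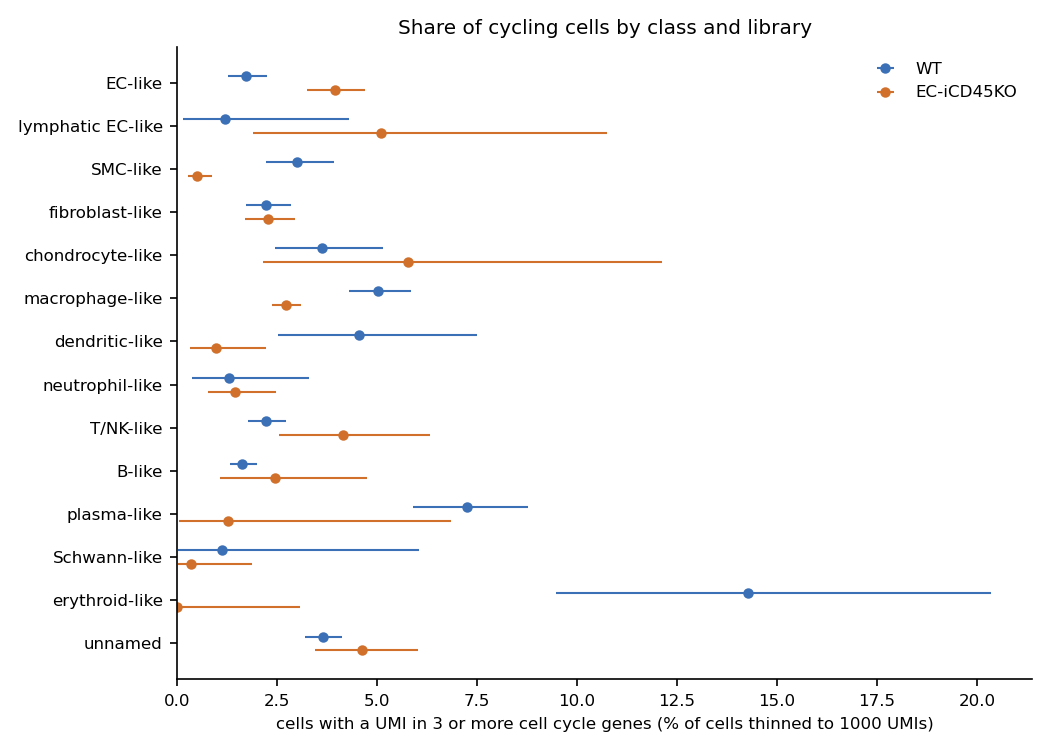
Share of cells with a UMI in 3 or more of the 40 genes after thinning to 1000 UMIs (percent, x axis) for each class (y axis) in WT (blue) and EC-iCD45KO (orange); bars are exact 95% binomial intervals. EC-like cells lie at 1.71% and 3.93%, macrophage-like cells at 5.03% and 2.71%, and the intervals of the 2 libraries do not overlap in either class.

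Smaller classes also differed. Plasma-like cells were cycling in 96 of 1325 WT cells (7.25%, 5.91 to 8.78%) but in 1 of 79 EC-iCD45KO cells (1.27%, 0.032 to 6.85%). The 96 WT cells had T/NK markers at 1102 CPM, against 447 CPM in the other plasma-like cells, and macrophage markers at 4277 against 3097 CPM. The part of these in the plasma-like share was not tested. Erythroid-like cells, led by the globin genes, were cycling in 25 of 175 WT cells (14.3%, 9.46 to 20.4%) and in 0 of 118 EC-iCD45KO cells, which allows a share of up to 2.54% by the limit of 3 counts (the exact upper bound is 3.08%). The 25 WT cells had macrophage markers at 10758 CPM, against 5294 CPM in the other erythroid-like cells, with all 11 detected, and their part in the share was not tested. Dendritic-like cells had 14 of 308 (4.55%) and 5 of 521 (0.960%), a difference of -3.59 points (-6.58 to -1.37), but without thinning the difference was -0.966 points (-6.20 to 3.97), within counting error. The 14 WT cells had dendritic markers at 306 CPM against 855 CPM in the other dendritic-like cells, and the part of this in the share was not tested. The G2/M genes of the class summed to 379 and 203 CPM, 10 cells held 64.5% of the WT UMIs, and 14 of 19 with a mean of at least 5 CPM were lower in EC-iCD45KO by 2-fold or more, beside 5.17% of 9503 genes. In lymphatic EC-like cells the difference of 3.88 points (-0.24 to 9.51) rested on 2 and 6 cells.

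In EC-like cells the WT level of the G2/M genes together was 161 CPM (1423 UMIs, interval 152 to 169). The EC-iCD45KO level was 389 CPM (4216 UMIs, interval 377 to 401), so that the log2 ratio was 1.28 (1.19 to 1.36). The S phase genes stood at 239 and 283 CPM, a log2 ratio of 0.24 (0.16 to 0.32). Of the 25 G2/M genes 19 had a mean of at least 5 CPM in this class, and 18 of those exceeded counting error toward EC-iCD45KO, 15 of them by 2-fold or more. None was lower by 2-fold. Over all 10991 genes with that mean, 1.56% were higher and 3.55% lower by 2-fold or more. The median log2 ratio of the 19 was 1.38, beside -0.01 over all genes. In any class a gene low in one library can pass this minimum only through the other. Such counts describe the genes that passed and not the whole list.

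Cdk1, the mitotic kinase, had 45 UMIs in WT EC-like cells (5.08 CPM, interval 3.71 to 6.80). In EC-iCD45KO it had 223 UMIs (20.6 CPM, interval 18.0 to 23.4), and its log2 ratio was 2.02 (1.55 to 2.51). Its partner Ccna2 went from 3.39 to 13.6 CPM (log2 ratio 2.00), and cyclin B2 (Ccnb2) from 5.31 to 14.8 CPM (1.48). Cyclin B1 (Ccnb1), at 2.60 and 4.98 CPM, fell under the minimum mean. The EC-iCD45KO library held the higher level of all 4 of these cyclin and kinase genes.

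Among genes that end mitosis, Ube2c stood at 12.9 CPM (114 UMIs) in WT against 42.3 CPM (459 UMIs) in EC-iCD45KO, with a log2 ratio of 1.72 (1.42 to 2.03). Cdc20, the activator of the anaphase-promoting complex, stood at 4.06 and 11.0 CPM (1.43). Birc5 (survivin), the chromosomal passenger protein, stood at 10.4 and 28.6 CPM, and its kinase Aurkb at 1.47 and 6.55 CPM, under the minimum mean. Top2a, the topoisomerase that untangles sister chromatids, went from 136 to 404 UMIs (15.4 to 37.3 CPM), and Mki67, the coat protein of mitotic chromosomes, from 122 to 335 UMIs (13.8 to 30.9 CPM).

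Among genes of the spindle, Hmmr, a spindle assembly factor, had 3.05 CPM in WT and 11.8 CPM in EC-iCD45KO (log2 ratio 1.95), and Tpx2, the activator of Aurora A, 4.40 and 13 CPM (1.56). The motor Kif11 stood at 3.61 and 8.94 CPM (1.31), but Kif20b, a kinesin of cytokinesis, stood at 8.47 and 9.13 CPM, a log2 ratio of 0.11 (-0.34 to 0.56), the only one of the 19 that was not above its counting error. Of the centromere genes Cenpf (8.81 and 25.1 CPM) had a log2 ratio of 1.51, Cenpe (7.23 and 14.7 CPM) 1.02 and Cenpa (16.0 and 27.1 CPM) 0.76.

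The S phase genes in EC-like cells did not move together. Of 14 with the minimum mean, 7 were higher and 2 lower in EC-iCD45KO beyond counting error. Of the 4 genes of nucleotide supply 3 were higher: Tyms stood at 26.3 and 46.0 CPM (log2 ratio 0.81, 0.58 to 1.04), Rrm2 at 6.66 and 12.8 CPM (0.94), and Tk1 at 4.97 and 12.0 CPM (1.27). In contrast the helicase subunits Mcm4 (23.5 and 15.9 CPM, -0.57, -0.87 to -0.27) and Mcm6 (16.5 and 10.4 CPM, -0.66, -1.03 to -0.30) were lower. Mcm3 was higher (20.1 and 25.7 CPM, 0.36), and Mcm7 (15.9 and 14.2 CPM) and Rrm1 (23.8 and 23.7 CPM) were within counting error.

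Few cells carried much of the EC-like G2/M level in EC-iCD45KO. The 10 cells with the most G2/M UMIs held 51.0% of them (2149 of 4216, 106 to 431 per cell), against 24.1% (343 of 1423, 15 to 57 per cell) in WT. These 10 EC-iCD45KO cells were deep, with 17752 to 80295 UMIs, and none was among the 10% with the highest doublet scores. Their EC markers summed to 5681 CPM, against 4848 CPM over the class, while macrophage markers summed to 1575 CPM, against 6330 CPM over the class. Of the 10 cells, 9 lay in the Gpihbp1 cluster. Outside the top 10 cells the G2/M level was 124 CPM in WT and 197 CPM in EC-iCD45KO, and the mean of single-cell CPM, which gives each cell the same weight, was 153 and 197 CPM. With that mean the median log2 ratio of the G2/M genes was 0.36.

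In macrophage-like cells the order of the libraries was the opposite. The G2/M genes together stood at 484 CPM in WT (6973 UMIs, interval 473 to 496). They stood at 237 CPM in EC-iCD45KO (9555 UMIs, interval 232 to 242), with a log2 ratio of -1.03 (-1.08 to -0.99). The S phase genes stood at 356 and 252 CPM (-0.50, -0.55 to -0.45). All 22 G2/M genes with the minimum mean were lower in EC-iCD45KO beyond counting error, 14 of them by 2-fold or more, beside 2.13% of 9657 genes lower and 0.922% higher by as much. Their median log2 ratio was -1.19, against -0.05 over all genes.

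Cenpf, at 26.2 CPM (377 UMIs) in WT and 8.18 CPM (330 UMIs) in EC-iCD45KO macrophage-like cells, had the lowest log2 ratio of the 22, -1.68 (-1.90 to -1.46). Nusap1, a microtubule bundler, stood at 15.4 and 5.43 CPM (-1.51), Ccna2 at 14.5 and 5.30 CPM (-1.45) and Cdk1 at 19.7 and 7.71 CPM (-1.35). At the other end, Cenpa stood at 34.4 and 30.6 CPM (-0.17, -0.32 to -0.01) and Kif23 at 20.3 and 14.5 CPM (-0.48), both genes of low concentration in cycling cells. Among the S phase genes Tyms (33.0 and 12.2 CPM, -1.44), Rrm2 (17.6 and 6.67 CPM, -1.40) and Mcm6 (28.1 and 13 CPM, -1.11) were lower by over 2-fold. Pcna (114 and 103 CPM, -0.14) was lower by little, and Mcm4 (17.0 and 15.2 CPM, -0.16, -0.38 to 0.06) was within counting error.

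The largest cluster of the macrophage-like class differed between the libraries. In WT it was the Zmynd15 and Folr2 cluster (1363 of 3636 cells), and in EC-iCD45KO the Gpnmb and Lyz1 cluster (6504 of 11623 cells, against 724 in WT), which may be that library and not a type. The class was deeper in WT (median 3319.5 against 1568 UMIs). Within each of its 4 clusters the G2/M level was lower in EC-iCD45KO: 684 and 398 CPM in the Zmynd15 cluster (log2 ratio -0.78), 305 and 159 CPM in the Gpnmb cluster (-0.94), 196 and 128 CPM in the Chil3 cluster (-0.61), and 480 and 250 CPM in the Ccl12 and Mrc1 cluster (-0.94). The thinned cycling share was lower in each as well, and in the Gpnmb cluster the difference, -1.45 points (-3.56 to 0.07), was within counting error. Without thinning the direction turned in 3 of the 4: the difference was 3.36 points (0.37 to 6.32) in the Zmynd15 cluster, 4.34 (1.49 to 7.03) in the Chil3 cluster and 1.18 (within counting error) in the Ccl12 cluster, against -5.12 (-7.65 to -2.96) in the Gpnmb cluster. In those 3 clusters the EC-iCD45KO cells were the deeper, with medians of 5880, 4926 and 4576 UMIs against 3837, 3245 and 3604.5, and in the Gpnmb cluster the shallower (944 against 1658). The Zmynd15 cluster, with Trem2 and Igf1 among its leading genes, had the highest G2/M level of the 4 in both libraries.

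**Figure D3:**
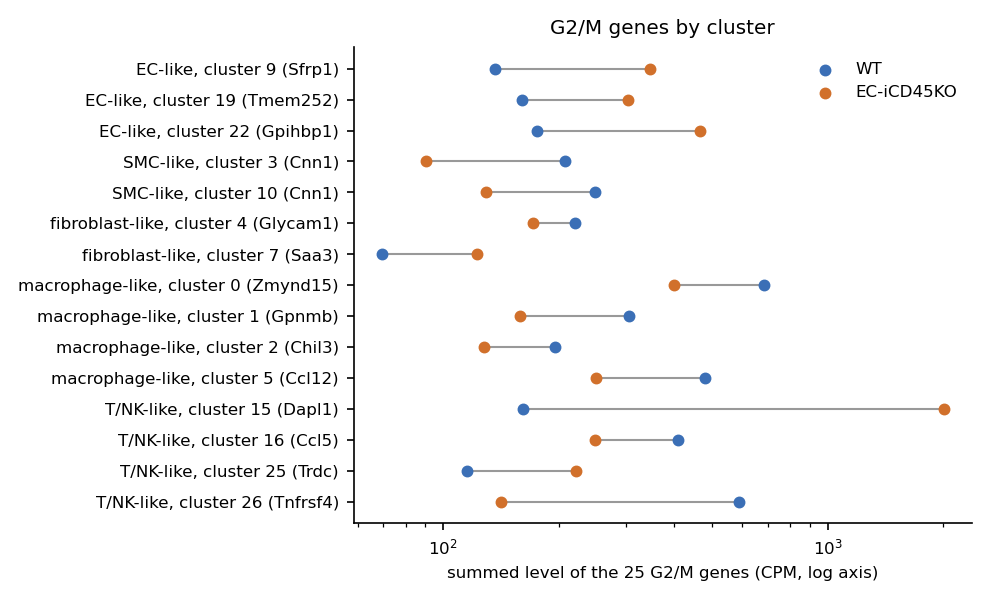
Summed level of the 25 G2/M genes (CPM, log x axis) in each cluster of 5 classes (y axis, with the first leading gene), for WT (blue) and EC-iCD45KO (orange); a grey line joins the 2 libraries. The 3 EC-like clusters have the higher value in EC-iCD45KO, the 4 macrophage-like clusters in WT, and the Dapl1 cluster of T/NK-like cells reaches 2006 CPM in EC-iCD45KO.

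Within the EC-like class the G2/M level was higher in EC-iCD45KO in all 3 clusters. It went from 136 to 346 CPM in the Sfrp1 cluster and from 160 to 302 CPM in the Tmem252 and Rbp7 cluster (the Rbp7 cluster). In the Gpihbp1 cluster it went from 175 to 467 CPM. Of the 10 EC-iCD45KO cells with the most G2/M UMIs (106 to 431 each), 9 lay in the Gpihbp1 cluster and 1 in the Sfrp1 cluster. Few cells thus carried much of the Gpihbp1 level, and the cluster levels without them were not computed. The cycling share, which counts cells and not UMIs, differed in 1 of the 3 clusters. The Rbp7 cluster had 19 of 1317 WT cells (1.44%) and 82 of 1507 EC-iCD45KO cells (5.44%), a difference of 4.00 points (2.69 to 5.36). The Gpihbp1 cluster had 1.52% and 2.68% (difference 1.16, -0.18 to 2.49, or 3.30, 0.36 to 6.20, without thinning), and the Sfrp1 cluster 2.46% and 1.16% (difference -1.30, -2.91 to 0.70). Without the Rbp7 cluster the EC-like difference in share was 0.364 points (-0.689 to 1.46), while the median G2/M log2 ratio was 1.56.

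In SMC-like cells the G2/M genes summed to 221 CPM in WT (1098 UMIs) and 109 CPM in the other library (1140 UMIs), a log2 ratio of -1.02 (-1.14 to -0.90). Of 10 G2/M genes with the minimum mean, 9 were lower in EC-iCD45KO beyond counting error and 8 by 2-fold or more, beside 5.46% of 10931 genes. A gene can pass the minimum through WT alone, so these counts do not describe the whole list. With no minimum the median log2 ratio of all 25 was -1.47. Top2a stood at 26.8 CPM (133 UMIs) and 5.45 CPM (57 UMIs), and Mki67 at 24 CPM (119 UMIs) and 6.41 CPM (67 UMIs). Anln was the exception, higher in EC-iCD45KO with a log2 ratio of 0.54 (0.27 to 0.81). These SMC-like values did not hold under other settings: the median log2 ratio of -1.74 became 0.07 without the 10% of cells with the highest doublet scores and 0.26 with the stricter cell filter. One WT cell held 245 of the 1098 UMIs. Cycling SMC-like cells of WT had SMC markers at 7986 CPM, against 27308 CPM in the other SMC-like cells, and macrophage markers at 8984 CPM against 3054 CPM, with all 11 macrophage markers detected, and the part of these in the result was not tested.

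In T/NK-like cells the G2/M genes stood at 314 CPM in WT (3237 UMIs) and 514 CPM in the other library (807 UMIs), a log2 ratio of 0.71 (0.60 to 0.82). Of 21 G2/M genes with the minimum mean, 11 were higher beyond counting error and 4 by 2-fold or more, beside 5.39% of 10179 genes. The widest gap between the libraries was in 1 of the 4 T/NK-like clusters. In the cluster led by Dapl1 and Lef1, the latter a transcription factor of naive T cells, 20 of 1468 WT cells (1.36%, 0.834 to 2.10%) and 11 of 79 EC-iCD45KO cells (13.9%, 7.16 to 23.5%) were cycling, and the G2/M level was 161 and 2006 CPM. Without this cluster, which held only 84 EC-iCD45KO cells, the median G2/M log2 ratio turned from 0.60 to -1.19 and the difference in share from 1.93 to -0.464 points. The 10 cells with the most G2/M UMIs held 71.3% of them in EC-iCD45KO (575 of 807) and 33.1% in WT. Outside those cells the G2/M level was 212 CPM in WT and 155 CPM in EC-iCD45KO, so the order of the libraries turned. The cluster led by Tnfrsf4 and Ctla4, markers of regulatory and activated T cells, had the higher G2/M level in WT (589 against 142 CPM).

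By gene, Uhrf1, which keeps DNA methylation through replication, had 52 UMIs (5.04 CPM) against 46 UMIs (29.3 CPM) in T/NK-like cells of the 2 libraries, WT first, a log2 ratio of 2.54 (1.93 to 3.14). Rrm2 stood at 20.2 and 54.1 CPM (1.42), Ube2c at 26.0 and 55.4 CPM (1.09) and Top2a at 41.9 and 74.5 CPM (0.83). T/NK-like cells held the highest level of 10 of the 15 S phase genes and 11 of the 25 G2/M genes in EC-iCD45KO. In WT, 17 of the 25 G2/M genes were highest in erythroid-like cells, where the G2/M genes summed to 588 CPM on 295 UMIs.

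**Figure D4:**
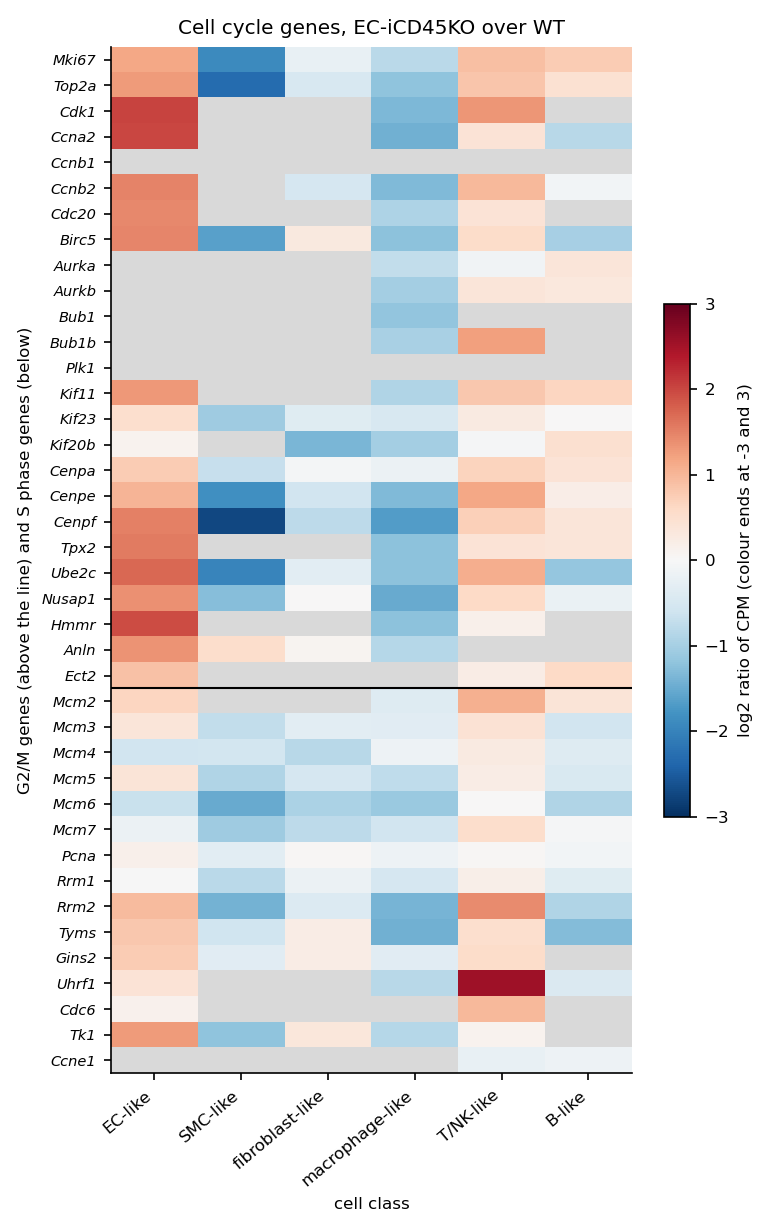
log2 ratio of CPM, EC-iCD45KO over WT, for each of the 40 genes (rows; G2/M above the line, S phase below) in 6 classes (columns); grey marks genes with a mean under 5 CPM in that class. The EC-like column is red for the G2/M genes, the macrophage-like column is blue throughout, and Anln is the one red G2/M gene of the SMC-like column.

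In fibroblast-like and B-like cells the direction of the G2/M median depended on the setting, while the S phase median was lower in EC-iCD45KO in 9 of 9 alternatives in each class. In fibroblast-like cells the G2/M genes stood at 177 and 135 CPM (log2 ratio -0.39, -0.51 to -0.27), and the median of 12 genes, -0.34, became 0.48 without the cells of highest doublet score, 0.24 with the stricter filter and 0.23 at the finer clustering. Most of the class lay in the Glycam1 and C7 cluster in WT (4048 of 4556 cells). In EC-iCD45KO it lay in the Saa3 and Sfrp4 cluster (1946 of 3570). The G2/M log2 ratios of these clusters had opposite signs, -0.37 and 0.83. The summed S phase log2 ratio was -0.23 (-0.33 to -0.13) over the class, but within counting error in each cluster. It was 0.04 (-0.11 to 0.18) and 0.08 (-0.09 to 0.26), in the same order. In B-like cells the G2/M genes stood at 260 and 293 CPM (0.17, -0.01 to 0.34) and the S phase genes at 317 and 253 CPM (-0.33, -0.52 to -0.14).

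Whether cycling cells kept the markers of their class was read from the summed level of the class's own markers. In EC-like cells it was 3658 CPM in the 49 cycling and 4486 CPM in the other WT cells, and 4286 and 5132 CPM in EC-iCD45KO, with all 12 markers detected in each group. Macrophage markers, which stood at 3519 and 3776 CPM in cycling and other EC-like cells of WT and at 5323 and 6020 CPM in EC-iCD45KO, were no higher in the cycling cells. Fibroblast markers were higher in cycling EC-like cells of WT, at 2350 against 696 CPM with all 10 detected, and not in EC-iCD45KO (490 against 768 CPM), and their part in the result was not tested. Macrophage-like cells also had levels close to those of the other cells (22620 and 27151 CPM in WT, 23069 and 30180 CPM in EC-iCD45KO), as did T/NK-like cells (5179 and 5931 CPM, 6344 and 5955 CPM).

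In B-like cells of WT the levels were 5322 and 7921 CPM. In other classes the gap was wider. Cycling neutrophil-like cells of EC-iCD45KO, 13 in number, had neutrophil markers at 1665 CPM against 22842 CPM in the others, with macrophage markers at 17782 against 10737 CPM and T/NK markers at 1009 against 139 CPM. Of these cells 30.8% were among the 10% with the highest doublet scores, against 10.7% of the others. Cycling plasma-like cells of WT had plasma markers at 12424 against 27862 CPM, and cycling fibroblast-like cells of WT had fibroblast markers at 6031 against 15575 CPM. Without the 10% highest doublet scores, and with the cells clustered anew, the fibroblast-like shares were 1.09% of 1381 WT cells and 2.70% of 1484 EC-iCD45KO cells. For the neutrophil-like and plasma-like shares the part of doublets was not tested beyond these values.

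**Figure D5:**
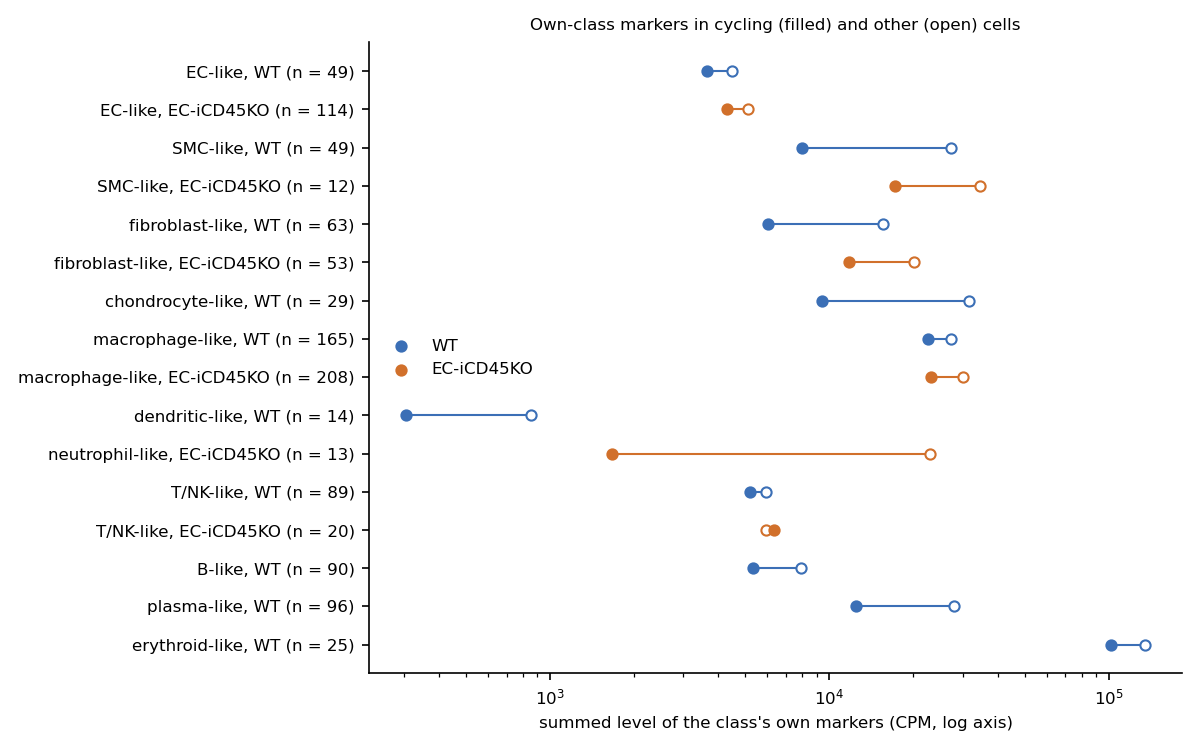
Summed level of each class's own markers (CPM, log x axis) in cycling cells (filled) and in the other cells (open) of the class, for WT (blue) and EC-iCD45KO (orange), where at least 10 cells were cycling (n). The EC-like, macrophage-like and T/NK-like pairs lie close together, and the pair of neutrophil-like cells of EC-iCD45KO lies farthest apart, at 1665 and 22842 CPM.

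A further 98 cell cycle genes in 7 lists, none of them used to call a cell cycling, were compared between cycling and other cells in each library. Of 10403 genes with the minimum mean, 3.74% were higher by 2-fold or more in cycling cells in both libraries. All 24 genes for the spindle, centromere and chromosome condensation were, as were 17 of 19 genes for origin licensing and the replication fork, 11 of 13 chromatin and tubulin genes and 9 of 13 checkpoint genes. Prc1, which bundles the central spindle, stood at 178 and 5.59 CPM in cycling and other WT cells and at 251 and 3.71 CPM in EC-iCD45KO. Clspn, an adaptor of the replication checkpoint, stood at 87.9 and 3.44 CPM in WT and 81.6 and 2.40 CPM in EC-iCD45KO. Stmn1, which destabilises microtubules, stood at 1096 and 56.3 CPM in WT and 1247 and 58.4 CPM in EC-iCD45KO. In the EC-like class, 19 of the 24 spindle genes and 16 of the 19 licensing genes had the minimum mean, and 19 and 9 of these were higher by 2-fold in cycling cells of both libraries, as were 8 of 13 chromatin and tubulin genes, beside 1.97% of 10124 genes. Here the minimum was on the mean of cycling and other cells in each library, and a gene near 0 in the other cells could pass it only through the cycling cells, so these counts do not describe the whole lists.

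In the lists of transcription factors, G1 cyclins and CDK inhibitors a smaller share of genes passed 2-fold. Of 15 transcription factors 7 were higher by 2-fold, among them E2f8 (21.2 and 0.858 CPM in WT), a repressor of E2F targets, and Foxm1 (23.6 and 2.50 CPM in WT), an activator of mitotic genes. Of 7 G1 cyclins and kinases 3 were (Cdk4, Cdk2 and Ccne2), while Ccnd3, cyclin D3, stood at 231 CPM in cycling and 414 CPM in other WT cells, and at 181 and 196 CPM in EC-iCD45KO. Of 6 CDK inhibitors with the minimum mean 3 were (Cdkn2a, Cdkn2c and Cdkn2d). Cdkn1a, the inhibitor induced by p53, stood at 224 and 225 CPM in cycling and other WT cells. In EC-like cells Cdkn1a was lower in cycling cells of EC-iCD45KO, at 299 against 548 CPM (log2 ratio -0.87, -1.09 to -0.67), and stood at 404 against 512 CPM in WT (-0.34, -0.72 to 0.02).

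The 10 genes beyond the 40 with the highest ratio in cycling cells were Kif20a, Kif22 and Ckap2l, which belong to the 7 lists, and Pbk, Esco2, Hist1h1b, Cdca3, Hist1h3c, Pclaf and Cep55. Pclaf, a partner of Pcna at the fork, stood at 401 CPM in cycling and 9.59 CPM in other WT cells, and at 297 and 4.29 CPM in EC-iCD45KO. Hist1h1b, a replication-dependent linker histone, stood at 319 and 5.98 CPM in WT and 240 and 3.32 CPM in EC-iCD45KO, and Cdca3, a trigger of mitotic entry, at 157 and 3.15 CPM and at 138 and 2.02 CPM. In EC-like cells of EC-iCD45KO, Pclaf stood at 311 and 11.5 CPM and Cdca3 at 103 and 3.44 CPM.

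Between the libraries these lists followed the 40 genes only in part. In EC-like cells 5 of 14 spindle genes with the minimum mean were higher in EC-iCD45KO by 2-fold or more and none was lower, with a median log2 ratio of 0.54, beside 1.56% of all genes higher, and Prc1 went from 5.53 to 26.4 CPM (2.25, 1.81 to 2.72). In macrophage-like cells 6 of 15 were lower by 2-fold or more, beside 2.13% of all genes, and none was higher (median -0.88). The licensing list had medians of 0.15 in EC-like and -0.32 in macrophage-like cells, and the G1 cyclins and kinases 0.12 and -0.07. None of the 5 CDK inhibitors with the minimum mean differed by 2-fold in EC-like cells.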

How the data were processed

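The data are 2 single-cell RNA libraries, 1 for each group. The deposited files hold raw UMI counts per gene and barcode, made with Cell Ranger 7.1.0 on mm10, per the submitters' processing notes. Whether intronic reads were counted is not given in the sources used here. The deposited counts had no barcode under 500 UMIs. A barcode was kept with 300 or more genes and no more than 10% of its UMIs mitochondrial. Clustering used scanpy 1.11.5 (2000 variable genes, 30 principal components, 20 neighbours, Leiden resolution 1), with 138 genes left out (the 40 genes and 98 genes in 7 cell cycle lists). Clusters were named from 19 marker lists by a log2 excess of at least 1 and a lead of at least 0.75 over the next list, thresholds set after the cluster profiles were seen; at the chosen lead, 2 large mixed clusters stayed among the unnamed.

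CPM is UMIs per 1000000 UMIs summed over a class. Intervals are exact Poisson (CPM), Clopper-Pearson (shares), Newcombe (differences of shares) and exact conditional binomial (log2 ratios), at 95%. Scrublet's own threshold marked 2 of 39503 WT cells and 0 of 28960 EC-iCD45KO cells and so had not worked. Doublets were kept, and removing the highest 10% of scores was an alternative. The code was checked on simulated data. Genes beyond the 40 were named, besides the lists, as the 10 with the highest ratio in cycling cells of both libraries, at 50 CPM or more there. Gene overlaps came from GENCODE M21, which matched 32158 of 32285 gene identifiers. The scripts ran under Python 3.11.15 with igraph 0.11.9, scipy 1.17.1, matplotlib 3.10.9, numpy 2.4.6 and pandas 2.3.3, with edgeR 4.0.16 in R 4.3.3 for TMM scaling factors only. The members, lists and rules were chosen with earlier results of these data known.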

Additional observations from a re-analysis of the deposited data

Results flagged for a closer look

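The log2 ratios of the summed G2/M level between the libraries had opposite signs in different classes, which flagged 6 pairs of classes. The ratio was higher in EC-like than in macrophage-like cells by 2.31, than in SMC-like cells by 2.30 and than in fibroblast-like cells by 1.66. It was higher in T/NK-like than in macrophage-like cells by 1.74, than in SMC-like cells by 1.73 and than in fibroblast-like cells by 1.10. With 1 library per group these differences were not tested. The SMC-like and fibroblast-like medians changed sign under other settings, and the T/NK-like one did so without the Dapl1 cluster.

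Among the clusters left without a name, 2 had a larger cycling share in EC-iCD45KO than in WT beyond counting error, and a share there above the neutrophil-like level. The cluster led by Slurp1 and Vcam1 had 4 of 1247 cells in WT (0.321%) and 36 of 859 in EC-iCD45KO (4.19%, 2.95 to 5.76%), and its G2/M level was 147 and 422 CPM. Without thinning its shares were 8.80% and 9.07%, a difference of 0.271 points (-1.87 to 2.43). The cluster led by Lef1 and Gm2682 had 198 of 3052 cells in WT (6.49%) and 15 of 137 in EC-iCD45KO (10.9%, 6.26 to 17.4%), and its G2/M level was 359 and 390 CPM. Without thinning its shares were 10.1% and 10.3%, a difference of 0.185 points (-2.51 to 3.56). The difference between the libraries was not tested in either.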

How the results depend on the processing

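No paired analysis was possible because there was a single library on each side. Over 18 results and 16 settings, 113 of 171 alternatives stayed within the interval of the reported value and 47 moved beyond it. The other 11 reversed the sign of a median or of the T/NK-like share. For a median, that interval had the width of the counting error of the summed genes and is not the error of a median. The sign also turned in 1 of 9 alternatives for the fibroblast-like share and in 3 of 9 for the B-like share, whose reported differences were within counting error. A minimum of 6 members, cells with 3 or more markers of their own class, the mean of single-cell CPM, leaving out shared barcodes and leaving out the Rbp7, Gpnmb or Dapl1 cluster were chosen after seeing the data. Causes were not tested. The sign held in all alternatives run for the EC-like and macrophage-like shares and medians, and for the SMC-like share and S phase median. It also held for the fibroblast-like and B-like S phase medians. These alternatives did not split the fibroblast-like class by cluster, where the summed S phase log2 ratios were 0.04 and 0.08. No value moved with CPM computed without mitochondrial, ribosomal protein and haemoglobin genes or without barcodes found in both libraries.

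For differences in cycling share (points), the EC-like 2.22 was 0.447 at 6 members and 0.364 without the Rbp7 cluster. The SMC-like -2.49 was -5.47 at 2 members, -0.789 without thinning, -0.100 at 6 members, -1.47 without high doublet scores and -1.24 with the stricter filter. The fibroblast-like 0.0272 was -2.03 at 2 members, 1.26 without thinning, 1.61 without high doublet scores, 1.39 with the stricter and 1.37 with the looser filter. The macrophage-like -2.32 was -3.76 without thinning and -1.29 at 6 members. The T/NK-like 1.93 was -0.464 without the Dapl1 cluster, and the B-like 0.813 was -0.599 without high doublet scores.

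For median log2 ratios of the G2/M genes, the EC-like 1.38 was 1.58 in cells with 3 own markers, 0.36 by the mean of single-cell CPM, 1.56 without the Rbp7 cluster and 1.65 with the stricter filter. The SMC-like -1.74 was -1.47 with no minimum, -1.51 with own markers, -1.09 by single-cell CPM, 0.0702 without high doublet scores and 0.26 with the stricter filter. The fibroblast-like -0.34 was -0.49 with no minimum, -0.0469 with own markers, 0.48 without high doublet scores, 0.24 with the stricter filter and 0.23 at resolution 2. The macrophage-like -1.19 was -1.13 with TMM, -0.79 by single-cell CPM, -1.01 without the Gpnmb cluster, -1.07 with the stricter filter and -0.93 at resolution 2. The T/NK-like 0.60 was 0.45 with TMM, 0.76 with own markers and -1.19 without the Dapl1 cluster. The B-like 0.35 was -0.23 by single-cell CPM, -0.0900 with the stricter filter and -0.10 at resolution 2.

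For the S phase genes, the EC-like 0.37 was 0.13 by single-cell CPM and 0.18 without the Rbp7 cluster. The SMC-like -0.81 was -0.62 by single-cell CPM, -0.53 without high doublet scores, -0.41 with the stricter filter and -0.66 at resolution 2. The fibroblast-like -0.33 was -0.14 with own markers and -0.10 with the stricter filter. The macrophage-like -0.58 was -0.51 with no minimum, -0.53 with TMM, -0.41 by single-cell CPM, -0.53 without the Gpnmb cluster and -0.40 at resolution 2. The T/NK-like 0.43 was 0.29 with TMM, 0.12 by single-cell CPM, -0.26 without the Dapl1 cluster and 0.59 at resolution 2. The requirement of 1000 UMIs left out 1596 of 4494 EC-like and 3945 of 11623 macrophage-like cells of EC-iCD45KO, so the thinned shares describe the deeper cells.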
